A study of Mus musculus with 24 samples.

Results

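Branched-chain amino acid (BCAA) breakdown was followed through 10 genes in plantaris, a fast hindlimb muscle of the mouse. They were chosen by symbol for their role in the pathway: Bcat2, Bckdha, Bckdhb, Dbt, Bckdk, Ppm1k, Ivd, Mccc1, Hibadh and Pcca. Each matched a single Ensembl gene among the 47643 in the count table, and all 10 were among the 10159 genes that passed the expression filter and were tested. The muscles came from wild type C57BL/6 mice breathing normal air (11 samples, no time given) or kept under tobacco smoke over 16 weeks (13 samples). Counts came from 3′-end RNA sequencing, in which a transcript yields reads only near its poly(A) tail, so that counts are not divided by gene length. The series title asks about chronic activity of the aryl hydrocarbon receptor (AhR), a transcription factor activated by smoke constituents, and what it does to muscle. Smoke was compared with air throughout.

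Leucine, isoleucine and valine are largely spared by the liver, and skeletal muscle is a main site of the opening step of their breakdown. In mitochondria an aminotransferase moves the amino group to 2-oxoglutarate, and the branched-chain ketoacid dehydrogenase complex then decarboxylates the ketoacid irreversibly. That complex is switched off when a dedicated kinase phosphorylates its E1 component and is switched on again by a matching phosphatase. The products go on through separate routes for each amino acid to acetyl-CoA, acetoacetate and propionyl-CoA.

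Total counts per sample ranged from 2868808 to 4060568 in air and from 2515697 to 4528845 in smoke. Fast fibre genes were abundant in every sample, and the 9 listed ones summed to between 152280 and 241190 CPM (counts scaled to library size) in air and between 160480 and 206430 CPM in smoke, against 375 to 758 and 311 to 675 CPM for 8 slow fibre genes. Along the leading component of variation within groups (16.0% of the variance of group-centred log2 CPM), air replicate 11 lay at 39.1 and smoke replicate 10 at 28.7, with all other libraries between -17.7 and 17.2. For each BCAA gene the fold change is also given without both of these libraries. Among markers of other cells, 5 of 7 Schwann cell and myelin genes were called higher under smoke (summed level 122 to 284 CPM in air and 180 to 924 CPM in smoke) and 3 of 5 blood genes were called lower (486 to 1444 CPM and 369 to 883 CPM). Of 11 clock genes 3 were called higher and 1 lower. Over all genes tested, 0.728% were called higher and 1.19% lower. Of 7 adipocyte genes, a cell type that also breaks down BCAA, 0 were called, with summed levels of 1191 to 2745 CPM in air and 1450 to 2661 CPM in smoke. Of the other lists, 0 of 5 endothelial, 0 of 6 fibroblast, 0 of 3 tested macrophage and 0 of 1 tested satellite cell genes were called. At the shares over all genes, lists this short would mostly hold 0 called genes. Of the fibre genes, 0 of 9 fast and 0 of 7 tested slow ones were called. At an unadjusted p under 0.05 by edgeR there were 1 fast (Myh4, higher) and 3 slow, against 15.5% of all genes. The 3 slow ones, Myl2, Myl3 and Atp2a2, were lower under smoke, and the other 4 tested slow genes had positive fold changes. Myf5, a satellite cell gene, was at or close to 0 counts in both groups. The part of these cells in the levels of the BCAA genes was not tested.

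The promoters show where an AhR binding core could lie in these genes. RefSeq windows on GRCm38.p6, each running from 250 bases before to 50 bases after a transcription start, were found for 9 of the 10 genes (12 windows, since Bcat2, Bckdhb and Pcca have more than 1 start), and none was found for Dbt. The letters GCGTG, the core of the AhR response element, were searched on both strands. They were present in 3 of the 12 windows, against 32.4% of 32851 mouse windows of the same length. These 3 windows, printed with the core in capitals, belong to Bckdha (minus strand), Bckdhb (plus strand) and Hibadh (minus strand).
Bckdha, chr7:25658712-25659011: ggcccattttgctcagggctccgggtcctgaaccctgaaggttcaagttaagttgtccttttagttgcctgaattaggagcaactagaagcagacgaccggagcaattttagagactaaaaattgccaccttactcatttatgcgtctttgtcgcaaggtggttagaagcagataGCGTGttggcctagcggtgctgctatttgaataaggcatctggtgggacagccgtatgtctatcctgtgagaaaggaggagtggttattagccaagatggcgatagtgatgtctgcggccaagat
Bckdhb, chr9:83924887-83925186: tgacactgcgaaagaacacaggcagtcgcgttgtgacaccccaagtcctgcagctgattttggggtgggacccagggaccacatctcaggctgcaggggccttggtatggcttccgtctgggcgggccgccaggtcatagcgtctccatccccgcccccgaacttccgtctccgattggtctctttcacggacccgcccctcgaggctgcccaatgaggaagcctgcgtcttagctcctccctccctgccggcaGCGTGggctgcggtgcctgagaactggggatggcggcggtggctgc
Hibadh, chr6:52640251-52640550: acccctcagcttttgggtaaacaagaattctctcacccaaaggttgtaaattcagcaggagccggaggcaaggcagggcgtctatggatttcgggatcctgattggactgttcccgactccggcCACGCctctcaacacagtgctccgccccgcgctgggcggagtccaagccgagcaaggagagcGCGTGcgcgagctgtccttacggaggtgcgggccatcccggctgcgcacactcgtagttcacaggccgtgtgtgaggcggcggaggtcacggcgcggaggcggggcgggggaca
The core began at base 176 of the Bckdha window, at base 255 of the Bckdhb window, and at bases 125 and 187 of the Hibadh window, counted from the 5′ end of the window. The windows are set on RefSeq starts, and the GENCODE gene bounds given with each gene begin elsewhere for these 3 genes. Apart from the core at base 125 of Hibadh, which is before the start in both, the side of the start on which a core begins therefore differs between the 2 annotations. The E-box CACGTG, read by clock and related factors, was in 0 of the 12 windows (7.15% of all windows), as was the D-box TTATGTAA (0.938%). CCAAT boxes were in 9 of the 12 windows (37.4% of all windows), with 4 of them in the Ivd window. GC boxes (GGGCGG) were in 5 of the 12 windows (35.7% of all) and the half-site AAGGTCA of oestrogen-related receptors in 0 (4.72% of all). These motifs were searched on both strands too, and 0 of their matches overlapped a GCGTG core. A match describes letters only.

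None of the 10 BCAA genes was called between smoke and air by edgeR's quasi-likelihood test (Benjamini-Hochberg adjusted p under 0.05 over all genes tested), where 195 genes, or 1.92% of those tested, were called. At an unadjusted p under 0.05 the count was also 0 of 10, against 15.5% of all genes, and DESeq2 and limma voom likewise called 0 of 10. That unadjusted count was 1 without an expression filter and when air replicate 1, 6 or 9 or smoke replicate 2, 6 or 10 was left out. Log2 fold changes (smoke against air) ran from -0.13 for Bcat2 to 0.21 for Dbt, with a median of -0.017 over the 10 genes and of 0.0066 over all genes tested. They were below 0 for 6 of 10 genes, against 48.4% of all genes. The 95% intervals of all 10 lay within a 1.5-fold change in either direction, reaching at the outside -0.30 (Bcat2) and 0.50 (Dbt). In bulk muscle, fewer cells of a type and less RNA per cell cannot be told apart. The labels do not say that each sample is a separate animal, so the p-values measure the spread between these samples.

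**Figure D1:**
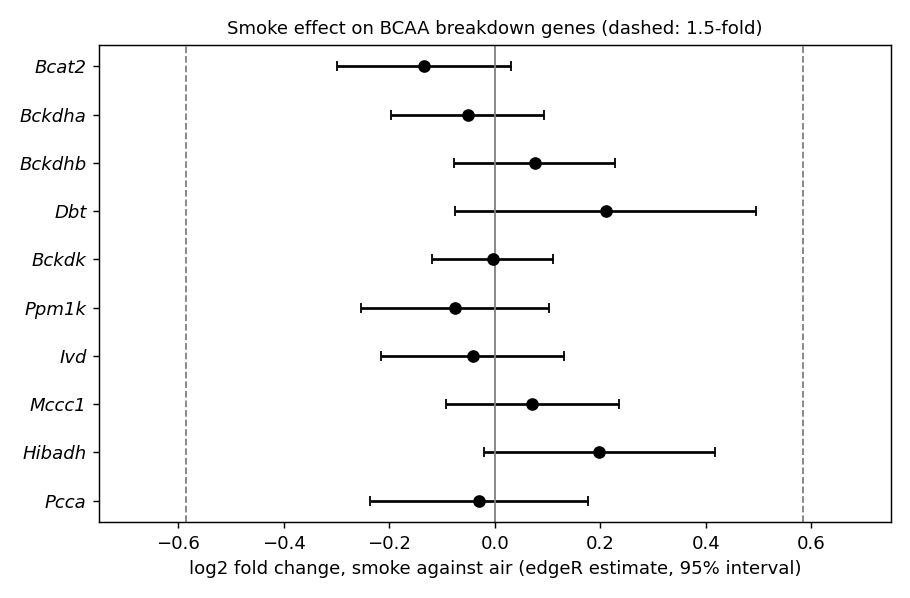
Log2 fold change of each BCAA gene under smoke (points) with its 95% interval (bars), from the edgeR fit over all genes. Dashed lines mark a 1.5-fold change, and each interval crosses 0 and stays inside them.

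Bcat2 encodes the mitochondrial branched-chain aminotransferase, which takes the amino group off leucine, isoleucine and valine (chromosome 7, 45570153 to 45589711, plus strand, GRCm38). Its level in air was 29.7 CPM at the lowest, 41.4 at the median and 51.3 at the highest, and in smoke 30.8, 35.8 and 48.8 CPM. The groups overlapped over nearly their whole range, although 9 of 13 smoke samples were below the air mean. The means were 40.9 ± 5.49 CPM (SD, n = 11) and 37.3 ± 5.35 CPM (SD, n = 13), a log2 fold change of -0.13 ± 0.081 (SE, adjusted p = 0.456 by edgeR). Air replicate 11 was the highest air sample and smoke replicate 10 the lowest smoke sample, and without both the value was -0.080 (edgeR adjusted p = 0.702). The gene overlaps the antisense gene 0610005C13Rik, and use of strand in counting was not stated.

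The catalytic core of the ketoacid dehydrogenase complex is built from E1 alpha (Bckdha), E1 beta (Bckdhb) and the lipoate-bearing E2 transacylase (Dbt). Bckdha (chromosome 7, 25629946 to 25658981, minus strand) encodes the subunit that the kinase phosphorylates. In air it was at 60.5 CPM at the lowest, 74.1 at the median and 91.9 at the highest, and in smoke at 59.6, 70.9 and 94.1 CPM. Its log2 fold change was -0.052 ± 0.072 (SE, adjusted p = 0.794 by edgeR), and 9 of 13 samples from smoke lay under the mean of air. It was -0.019 without air replicate 11, the highest air sample, -0.094 without smoke replicate 13, the highest smoke sample, and -0.020 without air replicate 11 and smoke replicate 10. Bckdhb (chromosome 9, 83925145 to 84124240, plus strand) supplies the partner subunit of the decarboxylase. It lay between 22.2 and 32.7 CPM in air (median 28.5) and between 26.1 and 36.7 CPM in smoke (median 29.3), so that 1 air sample was under the lowest smoke sample and most of the ranges were shared. The log2 fold change was 0.075 ± 0.075 (SE, adjusted p = 0.699 by edgeR). It was 0.042 without air replicate 1, 0.049 without smoke replicate 4, and 0.10 without both outlying libraries.

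Dbt (chromosome 3, 116513070 to 116549981, plus strand) encodes the E2 core, on which the other components assemble. Its level in air was 8.69 CPM at the lowest, 21.6 at the median and 25.0 at the highest, and in smoke 15.7, 20.7 and 33.4 CPM. Air replicates 2, 11 and 8, at 8.69, 9.76 and 12.75 CPM, were the lowest of all 24 samples, while the medians of the groups were close. The means were 18.8 ± 5.68 CPM (SD, n = 11) and 21.9 ± 4.93 CPM (SD, n = 13), a log2 fold change of 0.21 ± 0.14 (SE, adjusted p = 0.510 by edgeR). Dbt had the widest spread of the 10 genes, with a coefficient of variation of 30.2% in air and 22.5% in smoke, and its counts were also low, from 25 to 94 per air sample. The log2 fold change was 0.14 without air replicate 2, and 0.17 without air replicate 11 and smoke replicate 10 (edgeR adjusted p = 0.581).

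Bckdk encodes the kinase that phosphorylates E1 alpha and turns the complex off, and Ppm1k the mitochondrial phosphatase that removes the phosphate. Bckdk (chromosome 7, 127904082 to 127910221, plus strand, with no annotated overlap) was the most counted of the 10 genes, with 690 to 1127 counts per sample. It lay at 228 CPM at the lowest, 246.9 at the median and 321 at the highest in air, and at 230.6, 261 and 276 CPM in smoke. The smoke samples fell inside the range of the air samples. Means were 256 ± 31.4 CPM (SD, n = 11) and 256 ± 15.9 CPM (SD, n = 13), a log2 fold change of -0.0039 ± 0.057 (SE, 95% interval -0.12 to 0.11, adjusted p = 0.986 by edgeR). The sign of so small a value changed with limma voom and with the samples left out, and it was 0.030 without air replicate 11 and 0.025 without that library and smoke replicate 10.

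Ppm1k (chromosome 6, 57506502 to 57535468, minus strand) was at 14.3 CPM at the lowest, 18.1 at the median and 22.6 at the highest in air, and at 13.5, 17.7 and 21.4 CPM in smoke. Its log2 fold change was -0.076 ± 0.088 (SE, adjusted p = 0.742 by edgeR), and 9 of 13 smoke samples were below the air mean. The value was -0.043 without air replicate 9, the highest air sample, and -0.060 with both outlying libraries left out. Counts of Bckdk divided by those of Ppm1k in the same sample ranged from 10.1 to 17.7 in air (median 14.4) and from 11.5 to 20.1 in smoke (median 14.1). As each gene has its own 3′ end and capture, this ratio compares samples and not the amounts of the proteins. Counts of Bckdha over Bckdhb ranged from 2.05 to 3.34 in air (median 2.62) and from 2.04 to 3.33 in smoke (median 2.28).

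**Figure D2:**
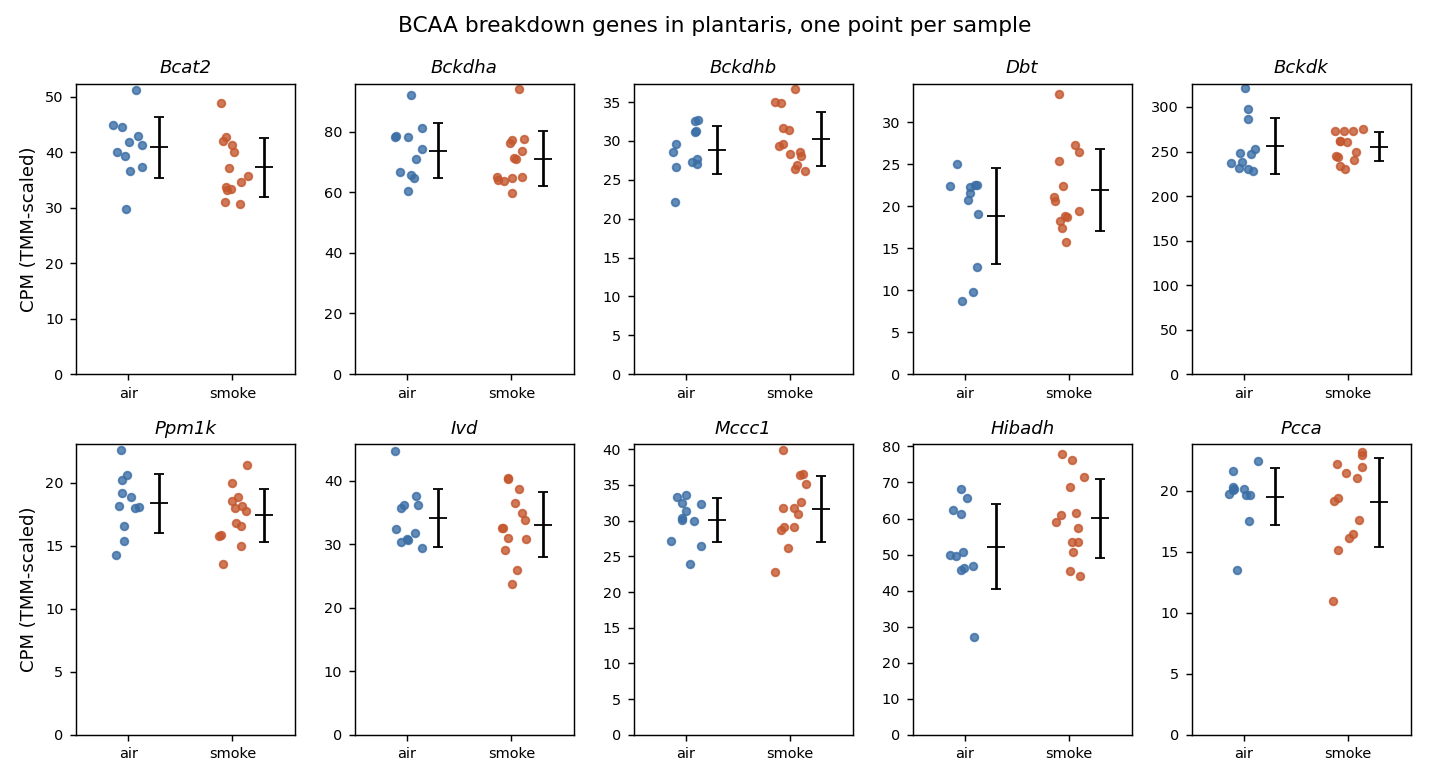
Level of each BCAA gene in every sample, in CPM on TMM-scaled libraries, with the mean and SD of each group beside the points (11 air, 13 smoke). The groups overlap in every panel, and the lowest Hibadh and Dbt values are air samples.

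Ivd and Mccc1 belong to the leucine route. Ivd (chromosome 2, 118861954 to 118882909, plus strand, with no annotated overlap) encodes isovaleryl-CoA dehydrogenase, which follows the ketoacid dehydrogenase. It ranged from 29.4 to 44.7 CPM in air (median 32.5) and from 23.8 to 40.5 CPM in smoke (median 32.5), and the log2 fold change was -0.042 ± 0.085 (SE, adjusted p = 0.872 by edgeR). The extremes were air replicate 11 at the top and smoke replicate 10 at the bottom, and without both the value was 0.032 (edgeR adjusted p = 0.902). With single samples left out it ran from -0.072 (smoke replicate 3) to -0.0013 (air replicate 11). Mccc1 (chromosome 3, 35959312 to 36000678, minus strand) encodes the biotin-carrying subunit of methylcrotonyl-CoA carboxylase, the next carboxylation in that route. It lay between 23.9 and 33.6 CPM in air (median 30.4) and between 22.8 and 39.8 CPM in smoke (median 31.7), and its log2 fold change was 0.071 ± 0.081 (SE, adjusted p = 0.737 by edgeR). Its smoke range enclosed the air range. The value was 0.039 without smoke replicate 1 and also 0.039 without air replicate 5, and 0.051 without both outlying libraries.

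Hibadh (chromosome 6, 52546228 to 52640389, minus strand) encodes 3-hydroxyisobutyrate dehydrogenase of the valine route. It was at 27.1 CPM at the lowest, 49.8 at the median and 68.3 at the highest in air, and at 44.0, 59.1 and 78.0 CPM in smoke. Of the 13 smoke samples 10 were above the air mean, and air replicate 11 alone made up the low end. The means were 52.2 ± 11.8 CPM (SD, n = 11) and 60.0 ± 11.0 CPM (SD, n = 13), a log2 fold change of 0.20 ± 0.11 (SE, 95% interval -0.022 to 0.42, adjusted p = 0.388 by edgeR), the smallest p of the 10 genes. Without air replicate 11 the log2 fold change was 0.13, and without that library and smoke replicate 10 it was 0.16 (edgeR adjusted p = 0.440).

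Pcca (chromosome 14, 122534324 to 122891100, plus strand) encodes the alpha subunit of propionyl-CoA carboxylase, which takes up the propionyl-CoA made from valine and isoleucine. It ranged from 13.5 to 22.5 CPM in air (median 20.1) and from 11.0 to 23.2 CPM in smoke (median 19.4), with a log2 fold change of -0.030 ± 0.10 (SE, adjusted p = 0.930 by edgeR). The lowest value of each group was a single low library, air replicate 11 and smoke replicate 13, and the log2 fold change was -0.075 without the former and 0.018 without the latter. Leaving out air replicate 11 and smoke replicate 10 gave -0.057. Bckdha, Bckdhb, Dbt, Ppm1k, Mccc1, Hibadh and Pcca overlap other annotated genes on the same or the opposite strand, so their counts are uncertain to that extent.

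By mean CPM the 10 genes kept nearly the same order in air and in smoke. Bckdk came highest, followed by Bckdha, Hibadh, Bcat2, Ivd, Mccc1 and Bckdhb in both groups. The 3 lowest were Pcca, Dbt and Ppm1k in air and Dbt, Pcca and Ppm1k in smoke. In air, neighbours in this order differed by less than the larger of their SDs for Hibadh and Bcat2 (52.2 ± 11.8 and 40.9 ± 5.49 CPM), for Ivd, Mccc1 and Bckdhb (34.2 ± 4.50, 30.1 ± 3.07 and 28.8 ± 3.11 CPM) and for Pcca, Dbt and Ppm1k (19.5 ± 2.34, 18.8 ± 5.68 and 18.4 ± 2.37 CPM). These are levels of 3′ reads, and the order between genes also depends on how well each 3′ end is annotated.

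The genes did not vary together as a block from sample to sample. Over the 45 pairs, Pearson's r of group-centred log2 CPM (24 samples) had a median of -0.0096, and 2 pairs passed Benjamini-Hochberg adjustment over the 45 by a permutation within groups. Dbt and Hibadh varied in the same direction, with r = 0.68 (permutation p = 0.00041, adjusted p = 0.0184) and Spearman's rho = 0.65 (permutation p = 0.00074, adjusted p = 0.0333). This relation was present in air (r = 0.69) and in smoke (r = 0.67). Dropping the 2 samples most distant from the Dbt median gave r = 0.63, and leaving out air replicate 11 and smoke replicate 10 gave r = 0.53.

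Dbt and Bckdk, the core and the kinase of the same complex, varied in opposite directions, with r = -0.73 (permutation p = 0.00136, adjusted p = 0.0306) and rho = -0.60 (permutation p = 0.00413, adjusted p = 0.0929). The value was -0.90 in air and -0.27 in smoke, and the difference between the groups was not tested. The air value rested on replicates 2, 8 and 11, which had the 3 lowest Dbt and the 3 highest Bckdk levels of their group, and over the other 8 air samples r was -0.21. Over both groups the value was -0.57 with the 2 most extreme Dbt samples dropped, and without air replicate 11 and smoke replicate 10 it was -0.62. Counts of Bckdk divided by those of Dbt accordingly reached 33.0 in air (lowest 9.27, median 11.2) and 17.3 in smoke (lowest 7.33, median 12.4).

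**Figure D3:**
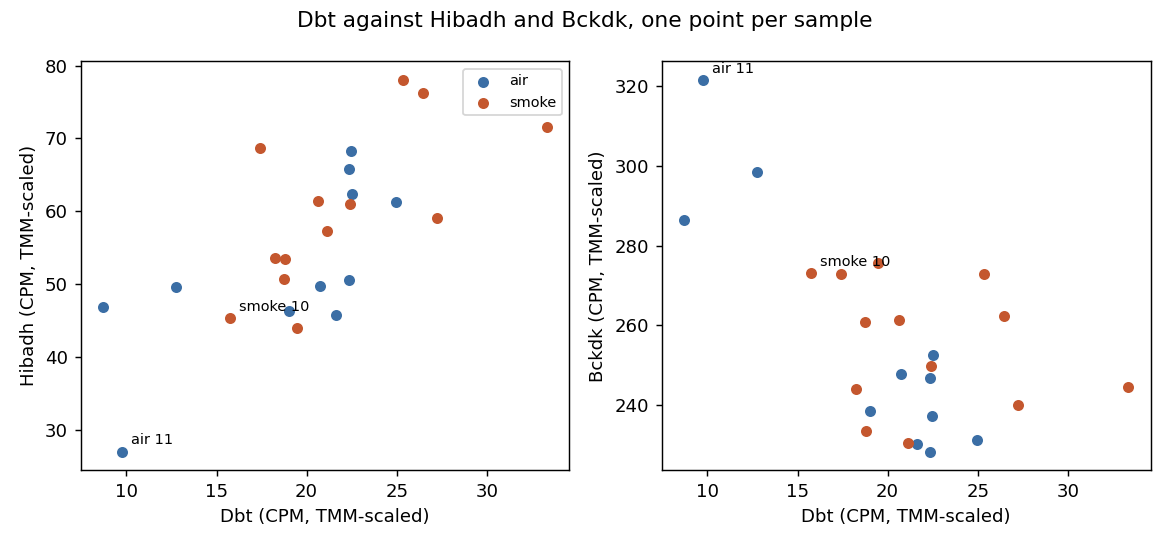
Level of Hibadh (left) and Bckdk (right) against that of Dbt, in CPM, with a point for each air and smoke sample. Hibadh rises with Dbt in both groups, and the 3 air samples with the lowest Dbt are the 3 with the highest Bckdk in air.

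Pairs with a known working relation were also tested within each group, 10 relations in all, and 0 passed adjustment. For E1 alpha and E1 beta (Bckdha and Bckdhb), r was 0.18 in air (permutation p = 0.589) and 0.37 in smoke (permutation p = 0.214), with rho of 0.25 and 0.59 (permutation p = 0.447 and 0.0359, adjusted p = 0.638 and 0.12). With the 2 samples most distant from the median dropped, the values of r were -0.19 and 0.64. For the kinase and the phosphatase (Bckdk and Ppm1k), r was -0.16 in air and -0.43 in smoke (permutation p = 0.648 and 0.140), rho was -0.49 and -0.38 (permutation p = 0.130 and 0.197), and trimming 2 samples gave r of -0.46 and -0.40. Klf15, a transcription factor known to promote BCAA breakdown, and Bcat2 gave r = 0.00039 in air (permutation p = 0.999) and 0.58 in smoke (permutation p = 0.0399, adjusted p = 0.399), with rho of 0.0091 and 0.61 (permutation p = 0.989 and 0.0309). Without 2 samples these values of r were 0.68 and 0.38, so that they rested on those samples, and Klf15 had as few as 5 counts in a sample. Bckdha with Dbt and Bckdhb with Dbt gave r between -0.51 and 0.11 (adjusted permutation p from 0.466 to 0.784), rho between -0.69 and 0.060 (adjusted permutation p from 0.12 to 0.945), and r between -0.38 and 0.21 without 2 samples.

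Of all genes tested, the 3 whose group-centred levels were most like those of Hibadh over the 24 samples were Sptssa (r = 0.92), Mta1 (r = 0.92) and Egln1 (r = 0.91). This is a description of the highest values, and none of these genes was called between smoke and air (edgeR adjusted p = 0.852, 0.739 and 0.838). The values of r were not computed without air replicate 11, which had the lowest Hibadh level.

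The rest of the pathway and the related pyruvate and 2-oxoglutarate dehydrogenases were read from lists of 48 further genes, 46 of which were tested. Of these 1 was called, lower under smoke (background 1.19% called lower and 0.728% called higher). It was Pdk4, a kinase of pyruvate dehydrogenase and not an enzyme of BCAA breakdown. At an unadjusted p under 0.05 there were 10 of 46, against the 15.5% of all genes. This count was 5 without air replicate 8, 13 without air replicate 11 and 7 without both outlying libraries. In the fit over all samples, 5 of the 10 were pyruvate or 2-oxoglutarate dehydrogenase genes and 1 was among the other BCAA enzymes. Of the other enzymes of BCAA breakdown, 18 of 19 were tested and 0 were called. Their log2 fold changes ran from -0.24 for Mmaa, which helps load the cobalamin cofactor of methylmalonyl-CoA mutase, to 0.42 for Mccc2, the partner subunit of Mccc1, which had only 2.52 ± 1.40 CPM (SD, n = 11) in air and 3.44 ± 1.25 CPM (SD, n = 13) in smoke. The median was -0.0015. The smallest p was that of Mmut, the mutase itself, with means of 53.4 ± 7.33 CPM (air) and 59.9 ± 8.62 CPM (smoke) and a log2 fold change of 0.16 ± 0.080 (SE, adjusted p = 0.317 by edgeR). Dld, the E3 subunit that the complex shares with the other 2-oxoacid dehydrogenases, stood at 65.8 CPM in both groups (log2 fold change -0.0019, SE 0.087, edgeR adjusted p = 0.995). Slc25a44, the mitochondrial BCAA carrier, had a log2 fold change of 0.046 ± 0.076 (SE, adjusted p = 0.838 by edgeR).

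For entry of BCAA into the cell, 0 of 5 transporter genes were called, with log2 fold changes from -0.17 for Slc43a2 (edgeR adjusted p = 0.265) to 0.21 for Slc43a1 (edgeR adjusted p = 0.644). Of 6 genes for enzymes that pass the amino group on to alanine, aspartate, glutamate and glutamine, 0 were called, and 5 had a negative fold change. The values ran from -0.22 for Gpt, the cytosolic alanine aminotransferase (27.1 ± 3.89 CPM in air and 23.4 ± 3.61 CPM in smoke, edgeR adjusted p = 0.205), to 0.13 for Gpt2, its mitochondrial counterpart (354 ± 40.5 and 388 ± 43.5 CPM, edgeR adjusted p = 0.334). Of 5 transcription regulators 0 were called, with values from -0.21 for Ppargc1a, a coactivator of mitochondrial genes (edgeR adjusted p = 0.222), to 0.30 for Klf15 (edgeR adjusted p = 0.499).

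**Figure D4:**
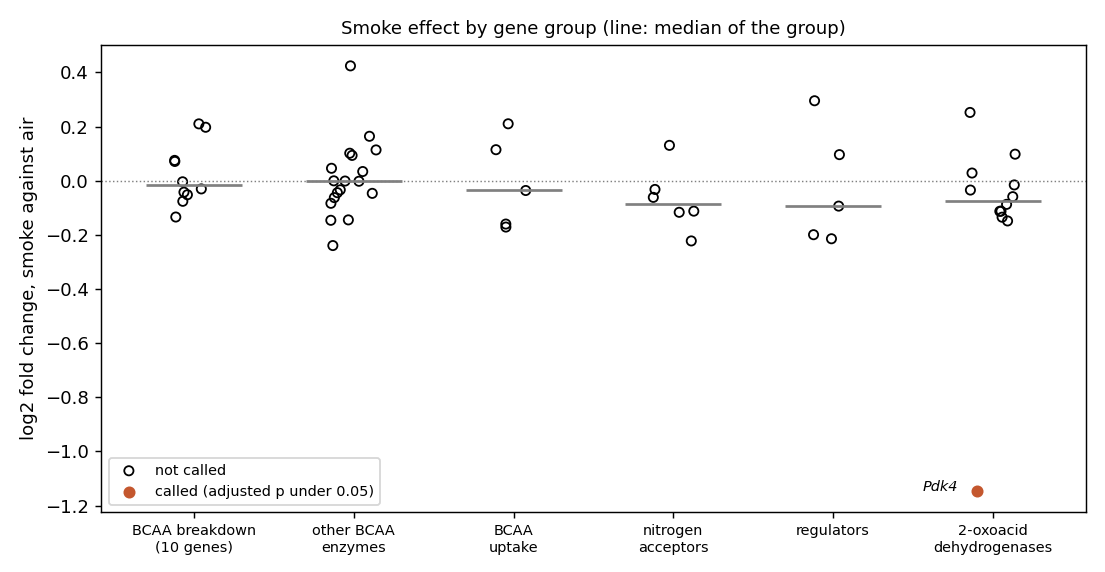
Log2 fold change under smoke of every tested gene of the BCAA set and of the surrounding lists, a point for each gene with the median of each list as a line. Filled points passed an adjusted p of 0.05, which only Pdk4 did.

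The sister complexes, pyruvate and 2-oxoglutarate dehydrogenase, share the architecture of the BCAA complex, and pyruvate dehydrogenase is also switched off by kinases of the same family as Bckdk. Of 12 tested genes of this group 1 was called, Pdk4, a fasting-responsive pyruvate dehydrogenase kinase. At an unadjusted p under 0.05 by edgeR there were 5 of 12, against 15.5% of all genes. They were Pdk4, Pdhb, Pdk2 and Ogdh, lower under smoke, and Pdp1, higher. Pdk4 fell from 5.32 ± 2.20 CPM (SD, n = 11) in air to 2.36 ± 1.29 CPM (SD, n = 13) in smoke, with a log2 fold change of -1.14 ± 0.27 (SE, adjusted p = 0.0165 by edgeR), where Bckdk had -0.0039. Its counts were low, from 5 to 36 per air sample and from 1 to 14 per smoke sample. The highest value of the group was that of Pdp1, a pyruvate dehydrogenase phosphatase, at 0.25 ± 0.088 (SE, adjusted p = 0.128 by edgeR), beside which the BCAA phosphatase Ppm1k had -0.076. The median over the 12 genes was -0.073, and 9 of them had a negative fold change.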

How the data were processed

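Plantaris RNA of 24 samples was counted by 3′-end sequencing. The authors deposited raw read counts per Ensembl gene, as whole numbers, 1 column for each sample. STAR, DESeq2 and the build mm9 are named in the submitters' processing notes without a role. The counting tool, the annotation and the use of strand are not given in the sources used here. Groups and replicate numbers were taken from the sample titles. Symbols and coordinates came from GENCODE M21 (GRCm38), which held 99.12% of the 47643 IDs.

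Genes were filtered with filterByExpr (minimum count 10) with TMM scaling, and the groups were compared by edgeR 4.0.16 (glmQLFit, glmQLFTest) in R 4.3.3 over all 24 samples without covariates. Calls used a Benjamini-Hochberg adjusted p under 0.05 over 10159 genes. CPM values are on TMM-scaled libraries, and log2 CPM has a prior count of 2. A floor of 3 counts is 0.662 to 1.19 CPM at this depth, and the BCAA genes had 25 or more counts in every sample. Intervals rest on the edgeR standard error and the fit's degrees of freedom. On simulated counts (10040 genes) 84% of 1.5-fold and 98% of 2-fold changes were called, 94.8% of 95% intervals held the true value, and 0 genes were called when none was changed. Over 133 within-group pairs of samples, chi-square per gene was 2.33 to 16.0, so no samples were merged. Correlations used 100000 permutations.

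The 10 BCAA genes were all described. Of each list of the 48 further genes, called genes and the highest and lowest fold change were named. Dld, Slc25a44, Mmut, Klf15, Pdhb, Pdk2, Ogdh, Myh4, Myl2, Myl3 and Atp2a2 were picked for their role or after their values were seen. The genes and lists were chosen with earlier results of these data known. Alternatives were RLE and upper-quartile scaling, other expression filters, DESeq2 1.42.0, limma 3.58.1 voom, removal of the 10 most abundant genes, an adjusted p under 0.10, a replicate block and leaving out each sample. Leaving out both outlying libraries was added after the data were seen.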

Additional observations from a re-analysis of the deposited data

How the results depend on the processing

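None of the 10 BCAA genes was called under any of 34 alternatives, and their smallest edgeR adjusted p over the alternatives was 0.268 (Hibadh). Of 330 comparisons of their fold changes with an alternative, 318 kept the direction and the side of the threshold, and 12 reversed around 0. Bckdk was 0.0039 with limma voom and 0.025 without both outlying libraries, and between -0.022 and 0.030 when samples were left out in turn. Ivd was 0.032 without both outlying libraries, and Pcca ranged from -0.075 to 0.018 when samples were left out. Over all genes, 195 were called, 318 with DESeq2 (110 higher, 208 lower), 413 at an adjusted p under 0.10 (169 of them higher), and from 141 to 254 with each sample left out. Pdk4 was the called gene of the surrounding lists under each alternative. Same-numbered samples shared no deviation on average: deviations from group means correlated at a mean of -0.0059 over 11 same-numbered pairs (-0.275 to 0.14) and 0.0011 over 132 others. The labels state no pairing, and this check cannot show that there was none. The replicate block gave 0 BCAA genes and 138 genes in all. Within groups, r of Bckdha with Bckdhb in air went from 0.18 to -0.19, of Bckdha with Dbt in air from -0.26 to 0.21 and of Bckdhb with Dbt in smoke from 0.11 to -0.044 without the 2 farthest samples, and r of Klf15 with Bcat2 in air to -0.0050 with a prior count of 0.5. The cause of these changes was not tested. Among the BCAA genes the replicate block moved Bckdha to -0.082, Ppm1k to -0.036, Mccc1 to 0.042 and Pcca to -0.0087. At this depth Dbt, Ppm1k and Pcca had the lowest mean CPM of the 10 genes, and Pdk4, at 0.319 CPM in the lowest smoke sample, reached below the floor of 3 counts.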
